A study of Mus musculus with 18 samples.

Results

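Focal adhesions are the sites where integrins of the cell membrane are tied to actin filaments inside the cell. Talins, kindlins, vinculin, alpha-actinins, filamins and tensins form the link, and the ILK-PINCH-parvin complex and the kinases FAK and SRC are assembled on it. RHOA, the ROCK kinases and myosin light chains pull on the filaments, and LIM proteins such as zyxin gather where that pull is high. Mouse ESCs kept in 2i with LIF grow as compact domes with few such sites, whereas fibroblasts spread on many large ones. The genes described here were 41 genes of these structures, taken by gene symbol out of 55469 genes with a usable value. The study reports focal adhesion among the pathways enriched in genes raised in both OSKM-ESCs and OSKM-iPSCs, in these same libraries. The list was drawn with that result known, so that the shares of members given below are no independent test of it.

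RNA-Seq was made of 18 libraries in 9 groups of 2. OSKM-ESCs were ESCs with a DOX-inducible M2rtTA in Rosa26, a polycistronic OSKM transgene in the Col1a1 locus and an Oct4-GFP reporter driven by the Oct4 distal promoter, from a cross of (C57BL/6 x 129S4/SvJae)F1 with (CBA/CaJ X C57BL/6J)F2. They had been moved from 2iL (N2B27 with PD0325901, CHIR99021 and LIF) to N2B27 with DOX and were collected on days 18, 25 and 38. 2iL-ESCs of the same line stayed in 2iL and were collected on the same days, so that presence of DOX with the OSKM factors and absence of the inhibitors and LIF came together in the comparison and cannot be told apart. OSKM-iPSC clones 1 and 3 (passages 7 and 6) and 2iL-iPSC clones 3 and 6 (passages 2 and 3) had been reprogrammed from Tet-On-OSKM MEF cells of (C57BL/6 x 129S4/SvJae)F1 mice. For the 2iL-iPSCs, the labels name N2B27 with DOX as the daily medium and the methods of the study name 2iL without DOX from picking on, so their titles were used to group them. The MEF libraries were of passage 4 cells in DMEM with FBS. ESCs and iPSCs were grown on mitomycin-treated MEF feeders, the ESCs were 1 line, and nothing says whether the 2 libraries of a day came from separate cultures, so p-values measure the spread between these libraries, which may be technical.

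Levels of fibroblast marker genes differed between the groups, and where their RNA came from was not tested. Of 9 such markers tested in ESCs, 7 were higher and 1 was lower in OSKM-ESCs, against 29.5% and 24.4% of all genes. In iPSCs, 0 of 10 were called. Over 12 fibroblast marker genes, the median level relative to MEF was 1.38% to 2.67% in the 6 OSKM-ESC libraries and 0.166% to 0.340% in the 6 2iL-ESC libraries. OSKM-iPSC clone 1 stood apart from every other OSKM and 2iL library at 6.31%, whereas clone 3 was at 0.117% and the 2iL-iPSC clones 3 and 6 at 0.0877% and 0.0164%. The summed FPKM of the 12 markers ran from 18.9 to 31.1 in OSKM-ESCs, from 6.00 to 10.5 in 2iL-ESCs and from 1092.5 to 1242.7 in MEF, and 9 of the 12 markers passed FPKM 1 in some OSKM-ESC library against 3 of 12 in 2iL-ESCs. All 8 pluripotent cell markers were over FPKM 1 in both ESC groups, with a sum of 1161.8 to 1799.7 in OSKM-ESCs and 2598.7 to 2928.7 in 2iL-ESCs. Where fewer cells of a kind and less RNA per cell would give the same level, bulk values cannot tell them apart. Levels of the main members are therefore given for clones 1 and 3 apart.

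In MEF, most of the members were at their highest. The 2 MEF libraries lay above all 16 OSKM and 2iL libraries for 30 of the 41 members and below them for 1, the formin Diaph1, against 25.8% above and 30.7% below of the 15567 genes that passed FPKM 1 in any library. FPKM passed 10 in all 18 libraries for 18 members. At the other end, Lims2 and Mylk did not pass FPKM 1 in any OSKM or 2iL library, and together with Fermt1 and Cav2 they were the 4 members at or below FPKM 1 in all 12 ESC libraries and were not tested there. Lims2, a PINCH protein, lay between 0 and 0.323 in OSKM-ESCs and between 7.59 and 8.85 in MEF. Mylk, the kinase of the myosin light chain, lay between 0.0492 and 0.329 in OSKM-ESCs and between 1.87 and 3.36 in MEF. Cav2, a caveolin, was listed at 0 in all 2iL-ESC libraries and reached 0.447 in OSKM-ESCs against 15.6 in MEF.

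**Figure D1:**
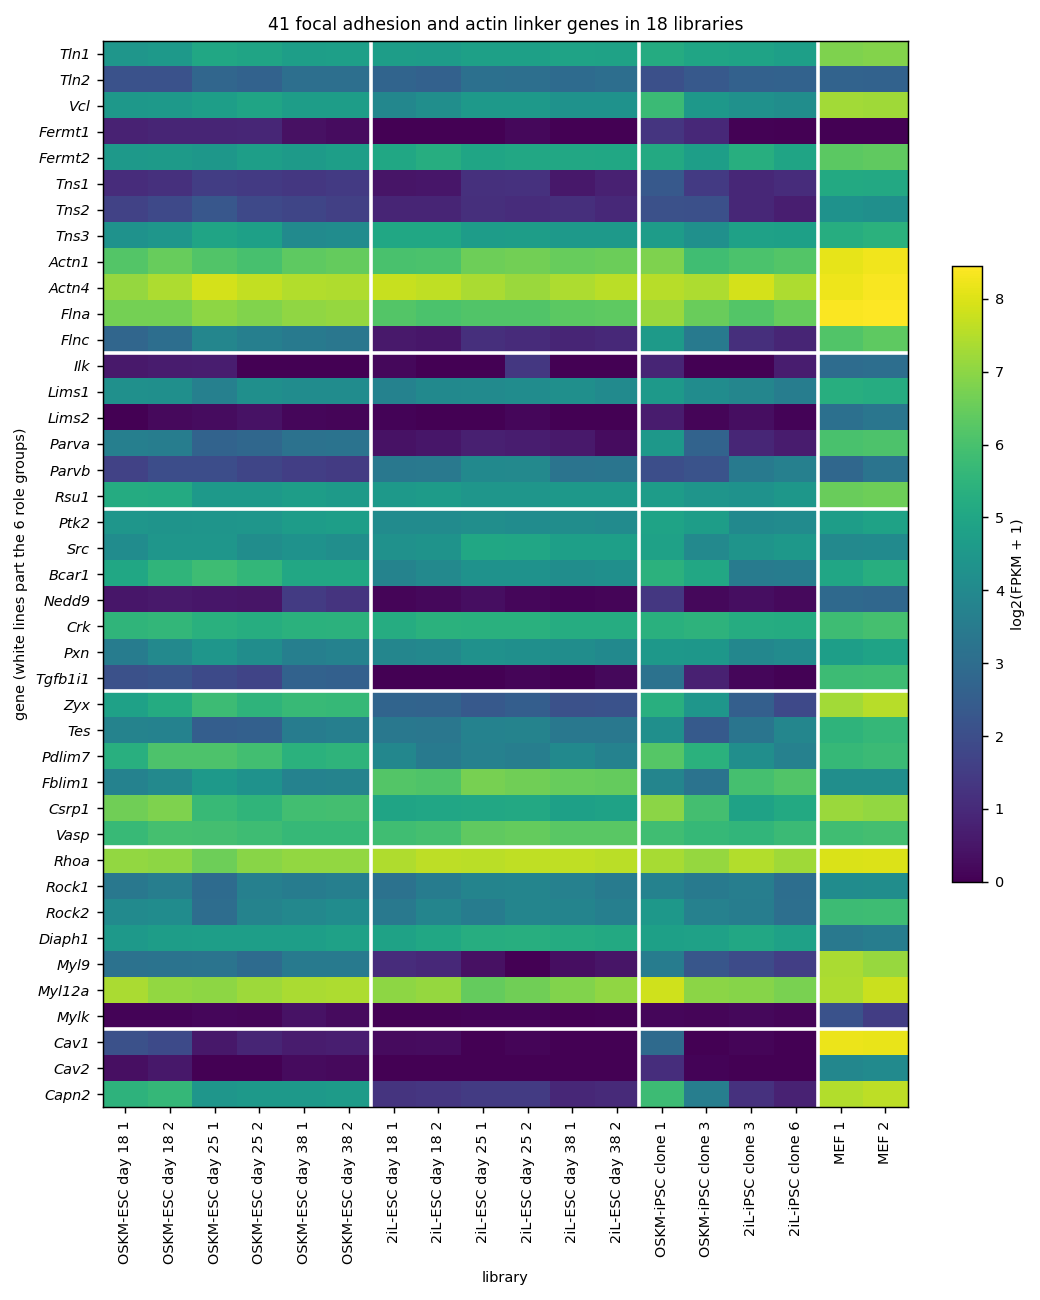
Level of the 41 members as log2(FPKM + 1) (colour) in the 18 libraries (columns), with rows ordered by role and white lines between the 6 roles and between OSKM-ESCs, 2iL-ESCs, iPSCs and MEF. The MEF columns hold the highest level for 30 members, and rows such as Parva, Tgfb1i1, Zyx and Capn2 change colour between the OSKM-ESC and 2iL-ESC blocks.

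The first comparison asked which members differed between OSKM-ESCs and 2iL-ESCs over the 3 days. By limma on log2(FPKM + 1) with adjusted p under 0.05, 18 of the 37 members tested were higher and 9 were lower in OSKM-ESCs. Among the higher ones, Parva, Tgfb1i1, Nedd9 and Cav1 passed FPKM 1 only in OSKM-ESC libraries. They entered the test through the group where they were high. Among all 14016 genes tested, 29.5% were higher and 24.4% were lower, so that the share of members that was lower (24.3%) was near that of all genes and the share that was higher (48.6%) was above it. The median log2 fold change was 0.16 over the members and 0.03 over all genes tested. With the cutoff of the study, a fold of mean FPKM over 2 with an unadjusted p under 0.05, 13 members were higher and 2 were lower, against 13.6% and 10.5% of all genes. The 6 OSKM-ESC libraries lay wholly above the 6 2iL-ESC libraries for 14 of the 37 members tested (and for Fermt1, which was under the filter) and wholly below for 5, against 14.6% above and 12% below of all genes tested.

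**Figure D2:**
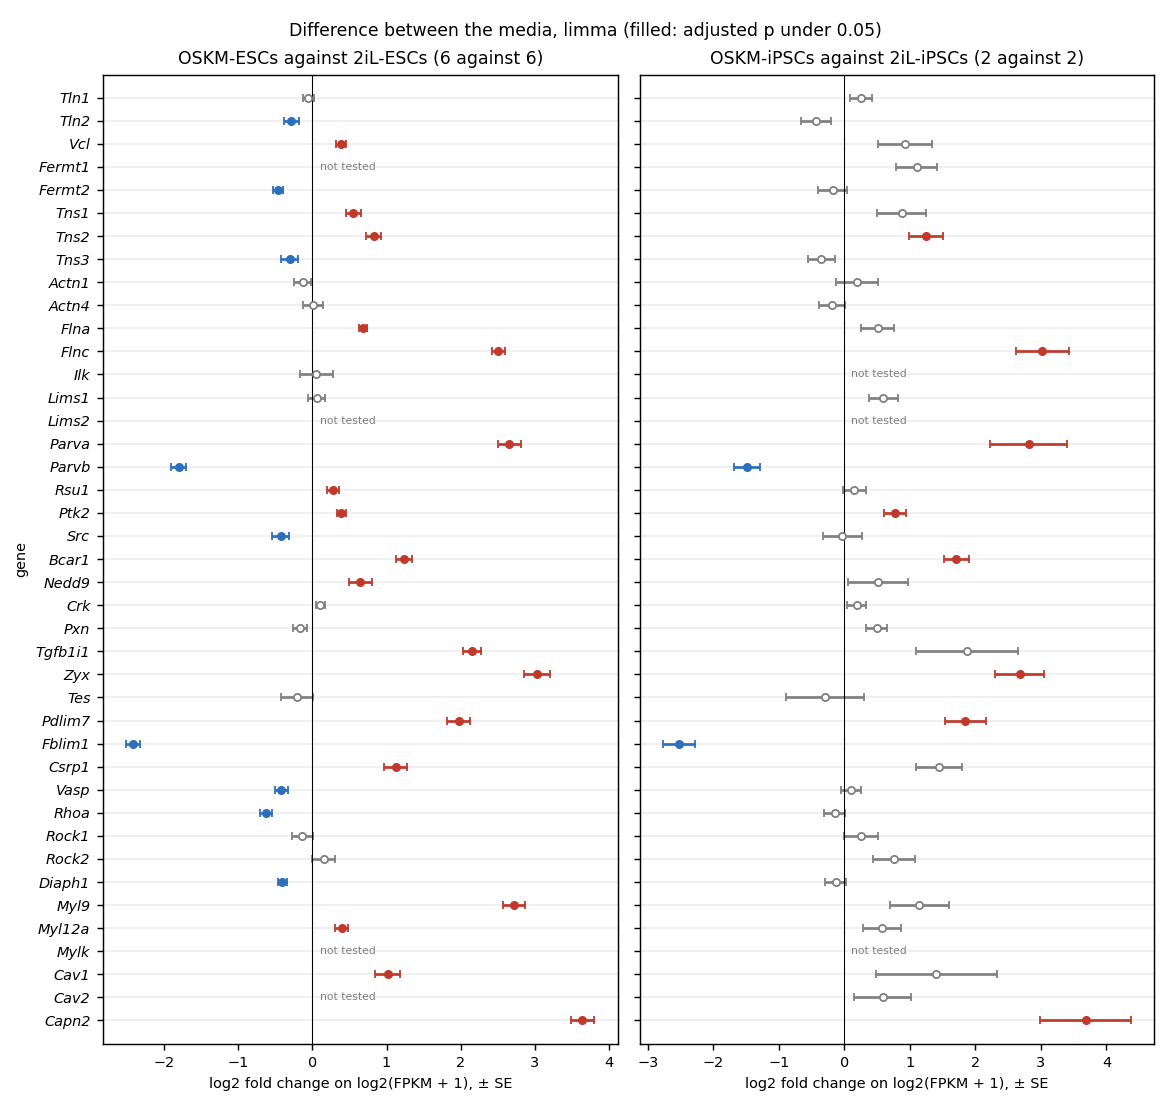
Log2 fold change ± SE on log2(FPKM + 1) of each member between OSKM-ESCs and 2iL-ESCs (left, 6 against 6 libraries, day in the fit) and between OSKM-iPSCs and 2iL-iPSCs (right, 2 against 2), with red filled points higher, blue filled points lower and open points not past an adjusted p of 0.05 in limma. Capn2, at 3.64 and 3.68, stands farthest to the right and Fblim1 and Parvb stand farthest to the left in both panels.

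Of the 12 proteins that link integrins to actin, 11 were tested in ESCs. Among these, 5 were higher and 3 were lower in OSKM-ESCs, against 29.5% and 24.4% of all genes. Flnc, the filamin of muscle, which crosslinks actin, had the largest log2 fold change of these linkers. Its FPKM was 5.97, 9.56 and 13.8 (lowest, median and highest of 6) in OSKM-ESCs and 0.411, 0.915 and 1.22 in 2iL-ESCs, with no overlap. The mean FPKM was 11.5-fold higher, and the log2 fold change was 2.51 ± 0.09 (SE, n = 6 against 6, limma adjusted p = 2.19e-09). In iPSCs, Flnc was at 23.3 and 9.96 in OSKM-iPSC clones 1 and 3, against 1.19 and 0.832 in the 2iL-iPSCs and 71.0 and 79.8 in MEF. Both OSKM-iPSC clones lay above both 2iL-iPSC clones, by a log2 fold change of 3.02 ± 0.41 (n = 2 against 2, limma adjusted p = 0.0201).

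Flna, the widespread filamin, was at 101, 122 and 136 in OSKM-ESCs against 65.8, 71.0 and 81.4 in 2iL-ESCs. It rose with a smaller log2 fold change of 0.69 ± 0.06 (limma adjusted p = 9.56e-07). Tns2, a tensin, which binds integrin tails and actin, was at 2.00, 2.51 and 3.88 in OSKM-ESCs and at 0.824, 1.04 and 1.21 in 2iL-ESCs. Its log2 fold change was 0.83 ± 0.11 (limma adjusted p = 4e-05), and the groups did not overlap. OSKM-iPSC clones held 3.30 and 3.17 of Tns2 against 0.921 and 0.652 in 2iL-iPSCs (log2 fold change 1.25 ± 0.26, limma adjusted p = 0.0467), and MEF held 18.6 and 17.3. Tns1 rose by 0.55 ± 0.10 in ESCs with overlapping groups, while Tns3 fell by 0.31 on the log2 scale, so that the 3 tensins did not move as one.

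Vinculin (Vcl), which reinforces the talin link under load, had an FPKM of 21.6, 25.0 and 29.2 in OSKM-ESCs and 14.0, 18.6 and 22.7 in 2iL-ESCs. It rose by 0.38 ± 0.07 on the log2 scale (limma adjusted p = 0.000489), with overlap, and 25.5% of its exon bases are shared with Ap3m1 on the other strand, so that reads of the pair cannot be told apart in these unstranded libraries. Talin 1 (Tln1), which opens integrins for their ligands, was at 20.6 to 31.4 in OSKM-ESCs and at 24.2 to 29.0 in 2iL-ESCs, and the difference of -0.05 ± 0.07 did not pass the test. Talin 2 (Tln2) fell by 0.28 on the log2 scale, and its groups overlapped. The kindlin Fermt2, which works with talin on the integrin tail, was at 21.0, 23.3 and 25.7 in OSKM-ESCs and at 30.5, 32.1 and 37.4 in 2iL-ESCs. It fell by 0.46 on the log2 scale (limma adjusted p = 0.000167) with no overlap. The kindlin of epithelia, Fermt1, went the other way at a low level, at 0.226 to 0.891 in OSKM-ESCs against 0 to 0.134 in 2iL-ESCs, at 1.47 and 0.961 in the OSKM-iPSC clones and at 0 in both MEF libraries.

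The alpha-actinins, which bundle actin, did not pass the test over all days. Actn4 was at 138, 173 and 238 in OSKM-ESCs and at 145, 178 and 213 in 2iL-ESCs (log2 fold change 0.01 ± 0.13, limma adjusted p = 0.958), with a sign that turned with median-ratio scaling. Actn1 was at 62.4 to 87.7 in OSKM-ESCs and at 64.5 to 98.2 in 2iL-ESCs, and its difference of -0.13 ± 0.11 did not pass the test either.

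In the complex of ILK, PINCH and parvin, the 2 parvins exchanged places. Parvins bind ILK on one side and actin on the other. Parva (alpha-parvin) had an FPKM of 5.42, 8.25 and 11.4 in OSKM-ESCs and 0.206, 0.461 and 0.675 in 2iL-ESCs, which is an 18.4-fold higher mean. Parvb (beta-parvin) was at 1.77, 2.31 and 3.02 in OSKM-ESCs and at 8.48, 9.5 and 15.1 in 2iL-ESCs. Neither gene's groups overlapped, and the log2 fold changes were 2.66 ± 0.16 for Parva (limma adjusted p = 8.02e-08) and -1.80 ± 0.11 for Parvb (limma adjusted p = 7.38e-08). Of the summed FPKM of both, Parva made up 76.9% ± 7.42 in the 6 OSKM-ESC libraries and 3.95% ± 1.07 in the 6 2iL-ESC libraries (mean ± SD). The same order stood in iPSCs, where Parva was 87.4% and 61.2% of the pair in OSKM-iPSC clones 1 and 3, and 4.66% to 7.80% in the 2iL-iPSCs. MEF held 88.7% and 91.4%.

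The iPSC values behind these shares were 21.5 and 5.46 of Parva in OSKM-iPSC clones 1 and 3 against 0.869 and 0.575 in 2iL-iPSCs, and 3.10 and 3.46 of Parvb against 10.3 and 11.8. Both parvins passed the test in iPSCs (Parva 2.81 ± 0.59, limma adjusted p = 0.0488; Parvb -1.49 ± 0.20, limma adjusted p = 0.0208). MEF cells held 64.2 and 67.1 of Parva and 6.06 and 8.59 of Parvb, so that Parvb in OSKM cells was below its level in MEF as well as in 2iL cells. Parva lies at chr7:112427505-112591692 on the plus strand and Parvb at chr15:84232043-84315688 on the plus strand (GRCm38), and both values are summed over the exons of the gene.

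The other members of the complex moved little or could not be read. Rsu1, which binds PINCH, was at 22.4, 24.0 and 35.5 in OSKM-ESCs and at 20.5, 21.8 and 23.6 in 2iL-ESCs, with overlap and a log2 fold change of 0.28 ± 0.08 (limma adjusted p = 0.0104). Once the estimated MEF share was taken off, an alternative chosen after the data were seen, Rsu1 no longer passed (0.20, limma adjusted p = 0.0668). Lims1, the main PINCH protein here, was at 11.7 to 17.9 in OSKM-ESCs and at 12.4 to 17.6 in 2iL-ESCs. Ilk, the scaffold at the centre of the complex, was listed at 0 in 9 of the 16 OSKM and 2iL libraries and at 6.89 and 7.33 in MEF. Of the exon bases of Ilk, 76.7% overlap Taf10 on the opposite strand, which held 17.5 to 50.6, so that a low Ilk value in these unstranded libraries does not tell its level.

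Of the 7 genes of FAK and SRC signalling and the paxillin adaptors, 4 were higher and 1 was lower in OSKM-ESCs. Of all genes tested, 29.5% were higher and 24.4% were lower. Bcar1 (p130Cas), a docking protein that SRC phosphorylates when it is stretched, had an FPKM of 31.8, 38.9 and 55.4 in OSKM-ESCs and 12.7, 17.1 and 18.9 in 2iL-ESCs. The mean was 2.46-fold higher with no overlap (log2 fold change 1.23 ± 0.11, limma adjusted p = 1.99e-06). OSKM-iPSC clones 1 and 3 held 41.9 and 32.2 against 10.4 and 10.7 in the 2iL-iPSCs (1.71 ± 0.19, limma adjusted p = 0.0149). MEF held 31.0 and 37.9 of Bcar1, and the OSKM libraries were at 92.4% to 161% of the MEF mean.

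Ptk2, which encodes FAK, was at 19.6, 20.6 and 25.6 in OSKM-ESCs and at 15.9, 16.1 and 17.2 in 2iL-ESCs. It rose by 0.39 ± 0.07 on the log2 scale (limma adjusted p = 0.000305), with no overlap. In iPSCs, 29.0 and 25.2 stood against 15.0 and 15.7, a log2 fold change of 0.78 ± 0.16 with a limma adjusted p of 0.04996 for Ptk2, which became 0.0518 with the MEF share taken off. Src fell by 0.43 on the log2 scale in ESCs, from 18.1 to 31.8 in 2iL-ESCs to 16.4 to 20.5 in OSKM-ESCs, with overlap. Nedd9, a relative of Bcar1, was at 0.401 to 1.79 in OSKM-ESCs and at 0.0582 to 0.251 in 2iL-ESCs, and rose by 0.65 ± 0.16.

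Tgfb1i1 (Hic-5), the paxillin relative that shuttles to the nucleus, was listed at 0 in 4 of 6 2iL-ESC libraries and at most at 0.128, and at 2.34, 3.42 and 5.27 in OSKM-ESCs. On log2(FPKM + 1) it rose by 2.15 ± 0.12 (limma adjusted p = 6.16e-08). OSKM-iPSC clone 1 held 8.10 and clone 3 only 0.693, against 0.119 and 0.0316 in 2iL-iPSCs, and the iPSC difference of 1.87 ± 0.78 did not pass (limma adjusted p = 0.182). MEF held 54.3 and 55.9 of Tgfb1i1. Paxillin itself (Pxn) was at 10.8 to 20.8 in OSKM-ESCs and at 13.8 to 18.4 in 2iL-ESCs and did not pass. Crk, an adaptor that binds phosphorylated paxillin and p130Cas, was at 37.1, 41.5 and 47.4 against 36.6, 38.7 and 41.5 (0.11 ± 0.06, limma adjusted p = 0.168).

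Zyxin and the other LIM and actin-assembly proteins moved in opposite directions, with 3 of 6 higher and 2 lower. Of all genes tested, 29.5% were higher and 24.4% were lower. Zyx, which is recruited to stretched actin and helps to repair it, had an FPKM of 27.4, 47.1 and 54.9 in OSKM-ESCs and 3.27, 4.47 and 5.67 in 2iL-ESCs. The groups did not overlap, the mean was 9.86-fold higher, and the log2 fold change was 3.03 ± 0.17 (limma adjusted p = 6.66e-08). OSKM-iPSC clones 1 and 3 held 38.9 and 20.6 against 4.85 and 2.61 in 2iL-iPSCs (2.68 ± 0.38, limma adjusted p = 0.0223), and MEF held 154 and 186. Both OSKM-iPSC clones lay above both 2iL-iPSC clones for Zyx. Zyx lies at chr6:42349630-42360213 on the plus strand.

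Pdlim7 (Enigma), a PDZ and LIM protein of actin bundles, was at 39.6, 50.9 and 67.8 in OSKM-ESCs and at 9.91, 12.2 and 15.1 in 2iL-ESCs. It rose by 1.98 ± 0.15 on the log2 scale (limma adjusted p = 7.8e-07) with no overlap. In iPSCs it was at 73.0 and 41.1 against 17.1 and 12.2 (1.85 ± 0.32, limma adjusted p = 0.0325). The MEF libraries, at 49.8 and 53.6, were inside the range of the OSKM cells. Csrp1, a LIM protein that binds alpha-actinin and zyxin, was at 45.3, 59.4 and 112 in OSKM-ESCs and at 26.7, 30.3 and 33.4 in 2iL-ESCs (1.12 ± 0.16, limma adjusted p = 7.7e-05). Its iPSC difference, 126 and 59.3 against 28.5 and 33.9, did not overlap but did not pass the test (1.45 ± 0.36, limma adjusted p = 0.0659).

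Fblim1 (migfilin), which binds filamin and the kindlin FERMT2, fell most of the members tested on this scale. Its FPKM was 12.3, 13.7 and 22.5 in OSKM-ESCs and 69.2, 87.9 and 104 in 2iL-ESCs, and it fell by 2.42 on the log2 scale with an SE of 0.09 (limma adjusted p = 2.19e-09). OSKM-iPSC clones 1 and 3 held 13.4 and 8.31 against 61.2 and 69.9, and it fell by 2.52 on the log2 scale with an SE of 0.25 (limma adjusted p = 0.0111). MEF held 17.1 in both libraries, which lay inside the range of the OSKM cells and far below the 2iL cells. Vasp, which lengthens actin filaments, fell by 0.42 on the log2 scale in ESCs with overlap, at 49.0 to 61.1 against 56.7 to 85.9. Tes, a LIM protein that binds zyxin, showed no difference over all days and is taken up with the days.

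**Figure D3:**
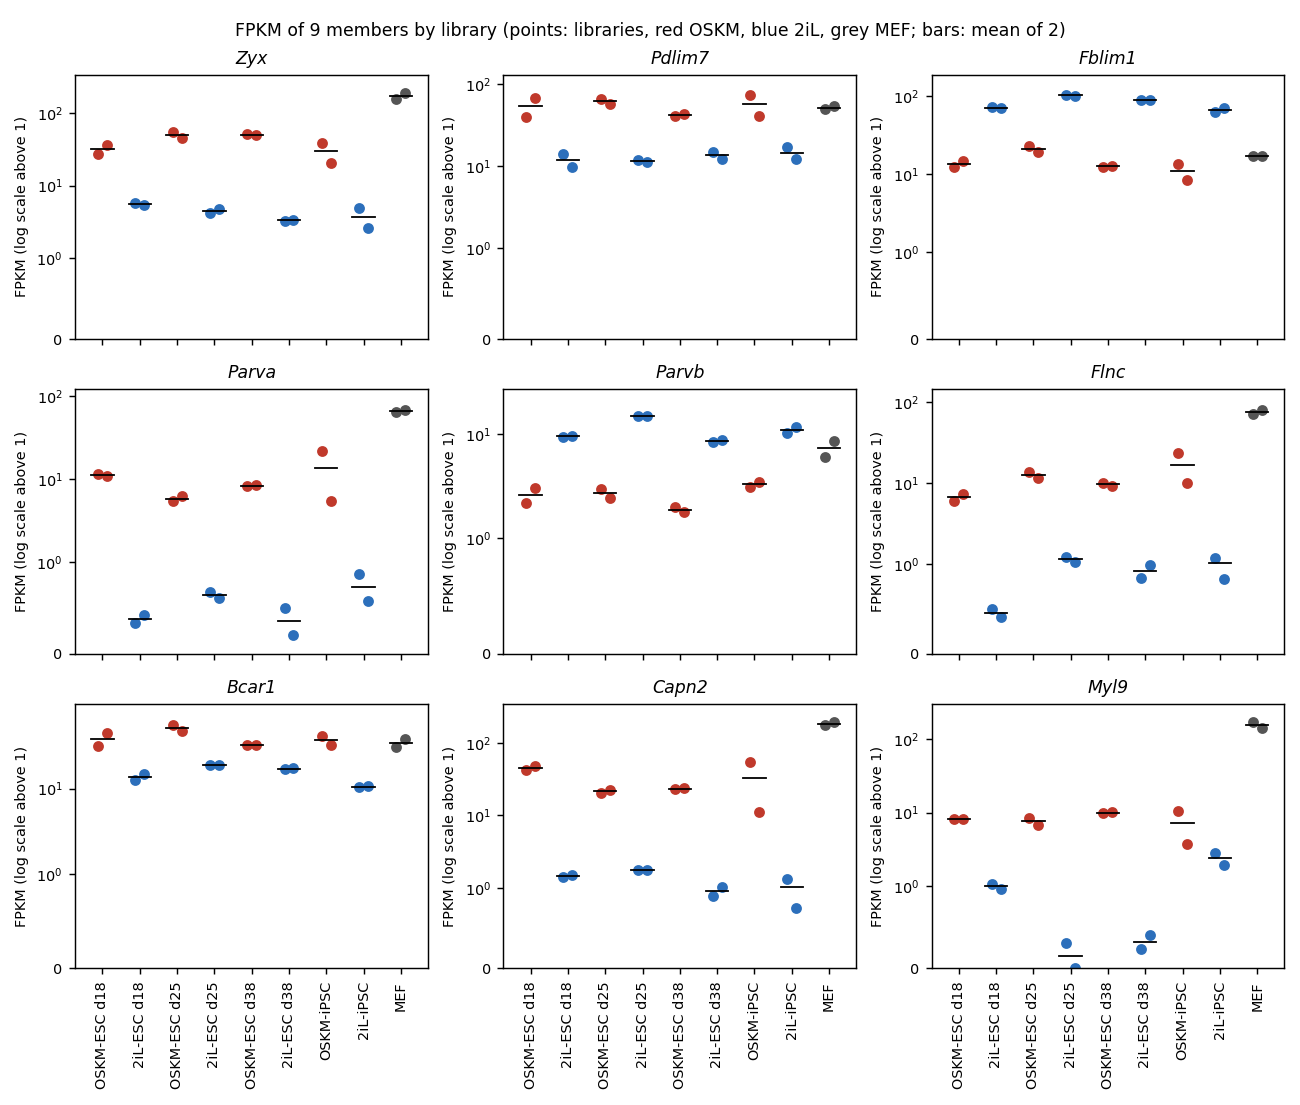
FPKM (log scale above 1, linear below) of 9 members in the 18 libraries, as points for libraries and bars for the mean of 2, red for OSKM, blue for 2iL and grey for MEF. Zyx, Pdlim7, Parva, Flnc, Bcar1, Capn2 and Myl9 are higher in the OSKM-ESC libraries and Fblim1 and Parvb lower, without overlap, and Parvb is lower in OSKM cells than in MEF.

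The genes of contraction, from RHOA to the myosin light chains, were split. Rhoa, the GTPase that starts contraction, had an FPKM of 94.4, 130 and 134 in OSKM-ESCs and 172, 191 and 199 in 2iL-ESCs, and it fell by 0.62 on the log2 scale with an SE of 0.08 (limma adjusted p = 4.53e-05) and no overlap. In iPSCs the groups overlapped, at 160 and 136 against 177 and 151. Diaph1, the formin that RHOA opens, fell by 0.40 on the log2 scale in ESCs with no overlap, from 27.9 to 37.9 in 2iL-ESCs to 22.8 to 27.2 in OSKM-ESCs. Rock1 and Rock2, the RHOA-bound kinases, did not pass in ESCs, at 6.69 to 11.8 and 7.19 to 16.4 in OSKM-ESCs against 8.06 to 13.3 and 9.76 to 13.3 in 2iL-ESCs.

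Myl9, the regulatory light chain of smooth muscle and stress fibre myosin, was at 6.69, 8.37 and 10.1 in OSKM-ESCs and at 0, 0.358 and 1.08 in 2iL-ESCs. It rose by 2.72 ± 0.15 on the log2 scale (limma adjusted p = 3.7e-08) with no overlap. In iPSCs, 10.6 and 3.80 stood against 2.83 and 1.97, and the difference of 1.15 ± 0.45 did not pass (limma adjusted p = 0.164). MEF held 166 and 142. If the fibroblast marker RNA were like that of MEF, its share in clone 1 would give 119% of the Myl9 excess over the 2iL-iPSCs. In clone 3 it would give 12.8%. Myl12a, the light chain of non-muscle myosin, was at 127 to 168 against 87.1 to 136 in ESCs and rose by 0.40 ± 0.08 with overlap. A gene listed as Gm49909 shares 13.8% of the exon bases of Myl12a on the same strand and ran from 0 to 404 over the libraries. The Myl12a values, those of MEF (167 and 218) among them, are therefore uncertain.

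Capn2, a calpain protease that cuts talin and other adhesion proteins, had the largest log2 fold change on log2(FPKM + 1) of the members tested, a scale on which low genes such as Tgfb1i1 change less. Its FPKM was 20.8, 23.4 and 48.8 in OSKM-ESCs and 0.901, 1.45 and 1.78 in 2iL-ESCs, a 21.8-fold higher mean with no overlap (log2 fold change 3.64 ± 0.16, limma adjusted p = 7.46e-09). OSKM-iPSC clones 1 and 3 held 54.2 and 11.2 against 1.33 and 0.749 (3.68 ± 0.69, limma adjusted p = 0.0393), and MEF held 177 and 194. Cav1, the coat protein of caveolae, was far lower than in MEF, at 0.452, 0.743 and 3.23 in OSKM-ESCs and at 0, 0.05 and 0.222 in 2iL-ESCs against 294 and 283 in MEF. It rose by 1.01 ± 0.17 in ESCs (limma adjusted p = 0.000363). In iPSCs, Cav1 was at 6.58 and 0 in OSKM-iPSC clones 1 and 3 and at 0.0817 and 0 in 2iL-iPSC clones 3 and 6.

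How much of these levels RNA like that of the MEF libraries would bring was worked out from the fibroblast markers of each library. This assumes that all marker RNA came from cells with the profile of those MEF cells, which was not tested. For Cav1, the OSKM-ESC libraries held 0.156% to 1.12% of the MEF level, below the 1.38% to 2.67% of the fibroblast markers. Clone 1 held 2.28% of Cav1 against 6.31%. This share would thus give more Cav1 than these libraries held. The percentages that follow set the share against the excess over a 2iL mean that kept its own marker level. In 2iL-ESCs that level was 0.166% to 0.340% of MEF. The percentages hold only under the assumption and are not exact parts of the excess. Once the MEF share was taken off, Cav1 was under the filter and could not be tested. For Zyx the share would carry 5.09% to 16.8% of the excess of each OSKM-ESC library over the 2iL-ESC mean, for Capn2 10.1% to 19.4%, for Parva 11.8% to 26.7%, for Flnc 11.4% to 33.2% and for Bcar1 1.79% to 5.11%. In OSKM-iPSC clones 3 and 1 the shares were 1.18% and 30.5% for Zyx, 2.13% and 22.0% for Capn2, 1.62% and 19.9% for Parva, 0.984% and 21.4% for Flnc, and 0.186% and 6.93% for Bcar1. For Tgfb1i1 they ran from 14.5% to 49.5% in OSKM-ESCs and for Myl9 from 22.5% to 53.0%. With the share taken off, 15 members were higher and 9 were lower in ESCs over all days. The share of all genes called after the same step was not recorded, so that these counts have no background.

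**Figure D4:**
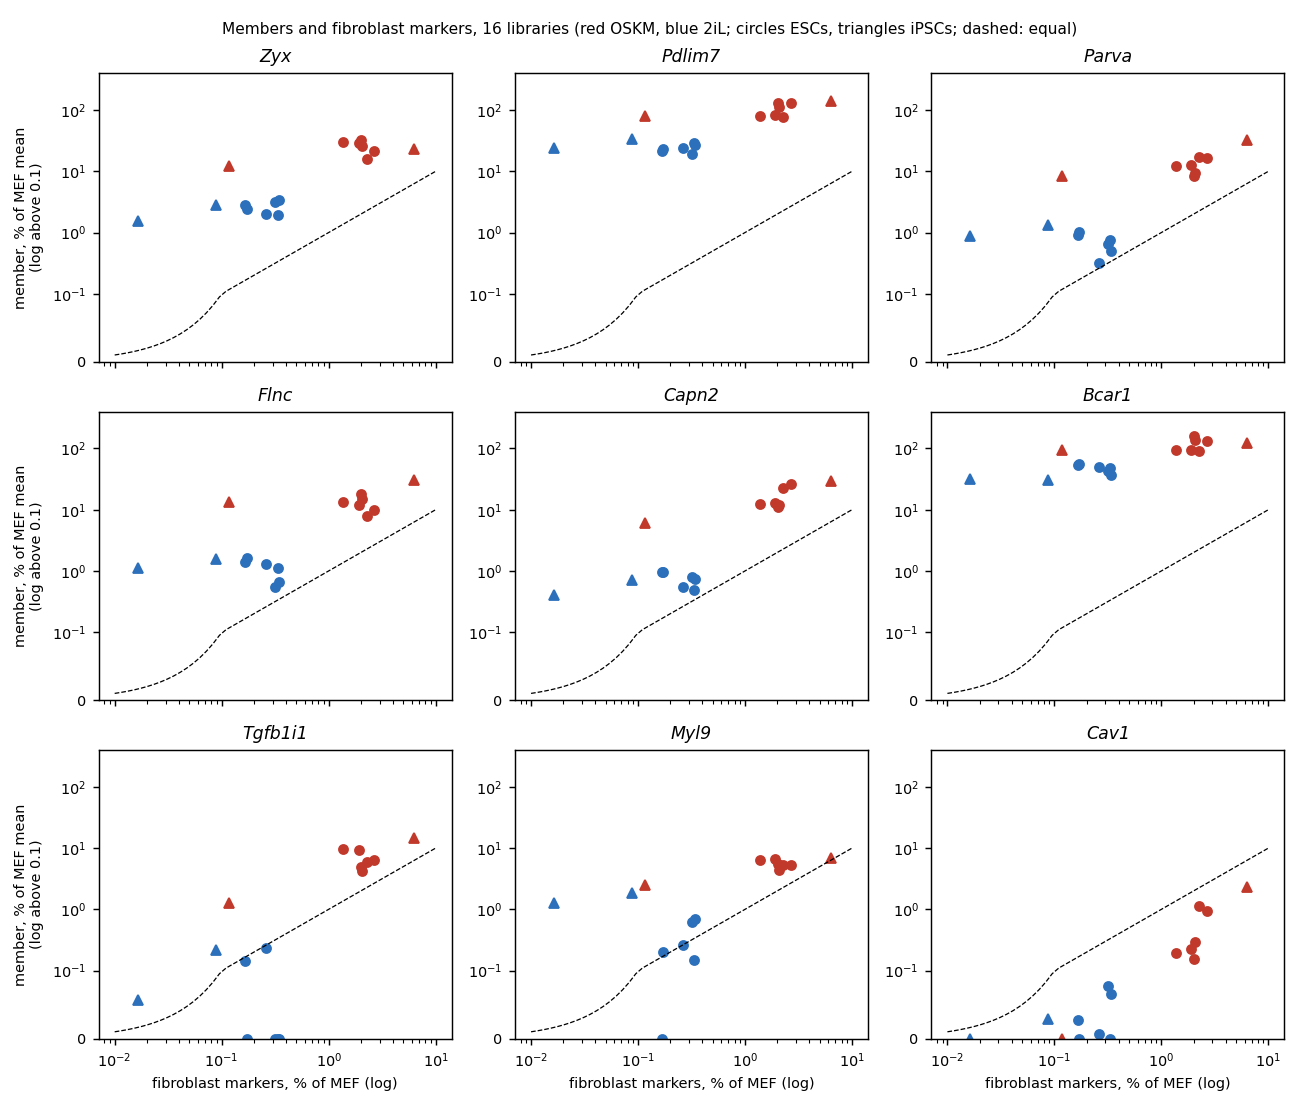
Level of 9 members as a percent of the MEF mean (y axis, log scale above 0.1) against the median of 12 fibroblast markers as a percent of MEF (x axis, log scale) in the 16 OSKM (red) and 2iL (blue) libraries, circles for ESCs and triangles for iPSCs, with a dashed line where both are equal. OSKM-iPSC clone 3, the red triangle at 0.117%, lies above the blue triangles for every member shown but Cav1. Cav1 lies below the line in the OSKM-ESCs.

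The second comparison was that of the iPSC clones. Of 38 members tested between OSKM-iPSCs and 2iL-iPSCs, 8 were higher and 2 were lower by limma with adjusted p under 0.05, against 5.0% higher and 2.96% lower of 13653 genes. These were Tns2, Flnc, Parva, Ptk2, Bcar1, Zyx, Pdlim7 and Capn2 on one side and Parvb and Fblim1 on the other. The same 10 were called in the same direction in ESCs, and the 2 comparisons share no library. Of these, Tns2 and Parva passed FPKM 1 in iPSCs only in the OSKM-iPSC clones, where they were high. With the cutoff of the study, 10 members were higher and 2 lower, against 11.5% and 6.33% of all genes. All 18 members that were higher in ESCs had a positive difference in iPSCs. Of the 9 that were lower, 8 had a negative one, the exception being Vasp at 0.11 ± 0.16. Both comparisons set the same media against each other. The share of all genes called alike in both, or with the same sign, was not recorded, so that this overlap has no background. The median over the members was 0.54, and over all genes tested 0.09. Both OSKM-iPSC clones lay above both 2iL-iPSC clones for 22 of the 38 members and below for 5, against 37.2% and 25.4% of all genes tested. The 6 trophoblast markers summed to 11.4 to 30.4 in the OSKM-iPSC clones and to 3.12 to 5.87 in the 2iL-iPSC clones. Ascl2 was the largest part, at 5.44 and 25.0 in OSKM-iPSC clones 1 and 3. Elf5, Gata3 and Hand1 were higher in both clones at low levels, whereas Cdx2 was not, at 0.426 and 0.277 against 0.853 and 0.264. Of the 4 trophoblast markers tested, 0 were called, and their part in the counts of members was not tested. Passage differed with the medium of the clones, and the part of passage cannot be told apart.

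The iPSC counts rested on few libraries and on the scaling. With median-ratio scaling 5 members were higher, against 555 of 13653 genes, and with quantile normalization 4 were, against 426. In limma with no filter on low values, 0 were higher and 0 were lower. Without OSKM-iPSC clone 1, the clone with the highest fibroblast marker level, fewer members were called higher, in a fit with 1 OSKM-iPSC library. Without OSKM-iPSC clone 3 more members were called higher, and without either 2iL-iPSC clone no member was called. The share of all genes called was not recorded for the fits with a clone left out or with no filter. These shifts therefore have no background and are no result about the members. Across the 41 members, the difference in ESCs and that in iPSCs followed each other (Pearson's r = 0.95, Spearman's correlation 0.92), as a description over genes of the same libraries and scale, which are not independent replicates. Against the difference between MEF and 2iL-iPSCs, the ESC difference had a Pearson's r of 0.78 and a Spearman's correlation of 0.76 over the 41 members.

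Whether the difference between the media was unlike in ESCs and iPSCs was tested as an interaction over 16 libraries. Of 39 members tested, 1 was more positive in ESCs and 4 were more positive in iPSCs, against 5.55% and 8.67% of all 14621 genes. These counts moved widely when 1 library was left out. Without OSKM-iPSC clone 1 more members were more positive in ESCs, and without OSKM-iPSC clone 3 more were so in iPSCs. Both counts fell without 2iL-iPSC clone 3, and they were 0 and 2 with ESCs of day 38 only. The share of all genes called was not recorded for these fits. Myl9 was the one in ESCs, by 1.57 on the log2 scale (limma adjusted p = 0.0166). Pxn (-0.66), Vasp (-0.52), Rhoa (-0.47) and Ptk2 (-0.38) were the ones in iPSCs, with limma adjusted p from 0.01595 to 0.0479. Vasp and Rhoa had thus fallen in ESCs without passing in iPSCs, and the difference between these effects passed the test itself with all libraries. ESCs and iPSCs also differed in strain and passage, which cannot be told apart from the kind of cell.

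On single days, 20 members were higher and 9 lower on day 18, 17 higher and 10 lower on day 25, and 17 higher and 8 lower on day 38 by limma. Of all 14016 genes, 29.7% were higher and 20.5% lower on day 18, 23.3% and 28.3% on day 25, and 29.2% and 21.1% on day 38. Higher on all 3 days were 15 members and lower on all 3 days were 5 (Fermt2, Parvb, Fblim1, Rhoa and Diaph1), against 13.8% and 11.4% of all genes tested. Actn1, Actn4 and Tes were called in opposite directions on different days. The effect of the medium differed between days for 18 of 37 members, against 37.9% of all genes tested, by the F test of medium by day.

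Tes turned furthest. It was at 12.6 and 12.4 in OSKM-ESCs on day 18, at 4.78 and 5.01 on day 25 and at 10.6 and 11.5 on day 38, while 2iL-ESCs held 9.52 and 9.08, 12.3 and 12.9, and 9.49 and 9.47. Its log2 fold change was 0.39 on day 18 (limma adjusted p = 0.00197), -1.20 on day 25 (limma adjusted p = 1.4e-06) and 0.20 on day 38 (limma adjusted p = 0.0562). Zyx grew with day, from 2.30 ± 0.13 on day 18 to 3.20 ± 0.13 on day 25 and 3.57 ± 0.13 on day 38. Its OSKM-ESC level was 27.4 and 35.9, then 54.9 and 44.3, then 50.4 and 49.98, whereas its 2iL-ESC level went from 5.67 and 5.42 to 3.27 and 3.35. Capn2 was highest on day 18, at 42.8 and 48.8 in OSKM-ESCs, then at 20.8 and 22.3 and at 23.0 and 23.9, and its difference was 4.25, 3.03 and 3.64. Parva (3.14, 2.05 and 2.78) and Csrp1 (1.75, 0.53 and 1.08) were also lowest on day 25, and Csrp1 held 96.2 and 112 on day 18 against 50.9 and 45.3 on day 25.

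Nedd9 was at its highest on day 38, at 1.79 and 1.42 in OSKM-ESCs against 0.424 and 0.402 on day 25, with a log2 fold change of 1.28 ± 0.11 on day 38 against 0.25 ± 0.11 on day 25. Cav1 was higher on day 18, at 3.23 and 2.76, than on day 25, at 0.452 and 0.840. The summed fibroblast markers were 29.1 and 31.1 on day 18, 19.4 and 20.5 on day 25 and 18.9 and 19.2 on day 38 in OSKM-ESCs, and their part in the changes of Cav1, Capn2, Csrp1 and Parva between days was not tested. Some markers of other cells also moved on day 38. The 6 trophoblast markers then summed to 28.3 and 26.0 in OSKM-ESCs against 3.73 and 3.58 on day 25. Of this, Cdx2 was at 26.3 and 24.5 against 0.690 and 0.643, and 3 of the 6 were at 0 on day 38. The 7 primitive endoderm markers summed to 8.05 and 10.1 on day 38 against 2.91 and 4.52 on day 25, and 2iL-ESCs on day 38 held at most 2.52 of the trophoblast sum and 1.14 of the endoderm sum. Cdx2 was the main part of the trophoblast sum on day 38, whereas Ascl2 was lower than on day 25 and Gata4 overlapped between the 2 days. Whether trophoblast or endoderm cells were present was not tested. The part of such cells in the level of Nedd9 and of the other members on day 38 was not tested either. Among the 6 OSKM-ESC libraries, 17 of 36 members changed between days by the F test of limma, against 38.6% of all 13073 genes.

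**Figure D5:**
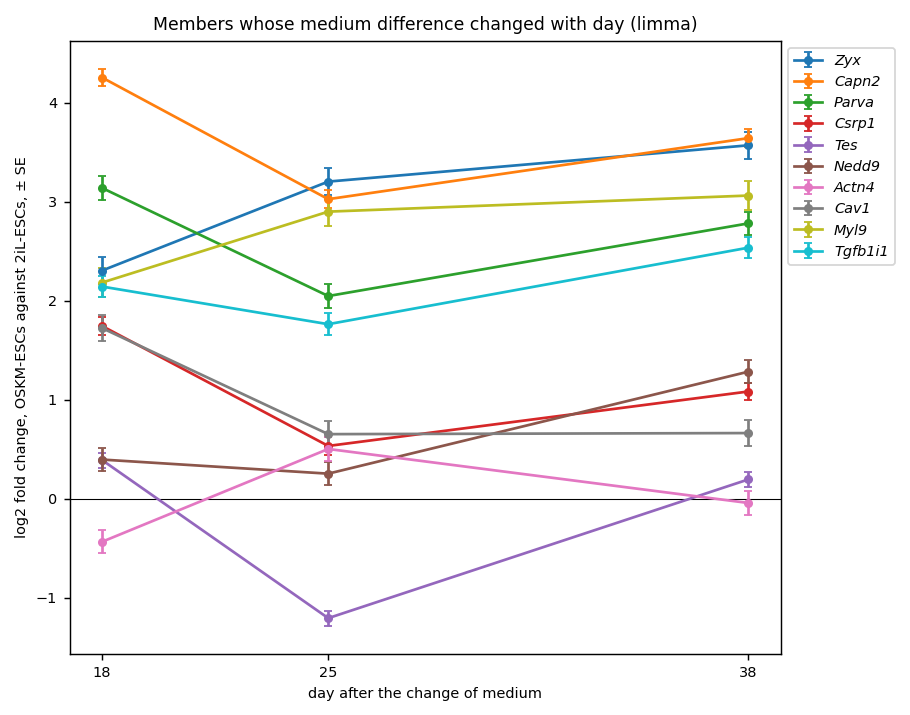
Log2 fold change ± SE between OSKM-ESCs and 2iL-ESCs on days 18, 25 and 38 (2 against 2 libraries on each day) for 10 of the 18 members whose effect differed between days. Zyx is smallest on day 18, Capn2, Parva and Csrp1 are largest on day 18, and Tes is below 0 on day 25 alone.

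MEF served as the reference for both kinds of iPSCs, and the 2 comparisons share the MEF libraries. Against MEF, 29 of 41 members were lower and 2 were higher in OSKM-iPSCs, where 26.4% of 14210 genes were lower and 34.0% higher. The lower calls were lost when either MEF library was left out, and the share of all genes was not recorded there. Of 40 members, 34 were lower and 4 were higher in 2iL-iPSCs, where 37.4% of 14224 genes were lower and 40.6% higher. The higher ones were Fermt1 (1.14) and Diaph1 (1.32) in OSKM-iPSCs, and Diaph1 (1.45), Fblim1 (1.88), Parvb (0.54) and Src (0.44) in 2iL-iPSCs. Fermt1 was at 0 in both MEF libraries and entered the test only because OSKM-iPSC clone 1 was at 1.47. It was under the filter in 2iL-iPSCs against MEF and was not tested there. Bcar1 (0.10 ± 0.19), Pdlim7 (0.08 ± 0.30) and Ptk2 (0.02 ± 0.13) did not pass in OSKM-iPSCs, while Bcar1 (-1.61), Pdlim7 (-1.77) and Ptk2 (-0.75) were lower than MEF in 2iL-iPSCs.

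Genes of the same pathway that were not members were counted from fixed lists, and beside these counts stand the 29.5% higher and 24.4% lower of all genes in ESCs and the 5.0% higher in iPSCs. Of 29 other adhesion-site proteins tested, 12 were higher and 6 lower in OSKM-ESCs, led by Sorbs3 (vinexin, 1.72), Kank2 (-1.07) and Limd1 (0.89), and 2 of 28 were higher in iPSCs. Of 9 integrin subunits tested, 4 were higher and 2 lower. Itga3, a laminin receptor subunit, was at 12.7 to 37.0 in OSKM-ESCs against 2.82 to 6.43 in 2iL-ESCs (2.23 ± 0.11), Itga9 rose by 2.03, and Itga5, the fibronectin receptor subunit, fell by 0.92 on the log2 scale. Of 24 genes of the actin, myosin and SRF-regulated cytoskeleton tested, 13 were higher and 3 lower, with a median of 0.83 against 0.03 over all genes, led by Acta2 (3.34), Cald1 (2.79) and Tpm1 (2.19). Acta2 was at 0.709 in OSKM-iPSC clone 3 and 80.4 in clone 1, against 1.43 and 1.23 in 2iL-iPSCs, whereas Cald1 was at 26.5 in clone 3 against 5.77 and 3.45. The 6 smooth muscle markers, Acta2 among them, summed to 22.9 to 59.4 in OSKM-ESCs and 8.55 to 14.4 in 2iL-ESCs, and their part in these counts was not tested. Of 12 genes of YAP/TEAD and its targets, 7 were higher by limma, led by Ccn1 (1.85), Tead3 (1.30) and Ccn2 (1.06).

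The CArG box is the DNA motif of the serum response factor, a known regulator of many actin and adhesion genes. It was looked for in RefSeq promoters (GRCm38.p6, 250 bases before to 50 after a start), which were at hand for 33 of the 41 members with 42 promoters. On both strands, the letters of the CArG box stood in 4 of the 42 member promoters and in 1.63% of 32851 promoters of that length. The TEAD letters GGAATG stood in 8 of the 42 and in 14.7% of all promoters, and the E-box CACGTG in 3 of the 42 and in 7.15% of all. The 4 sites are shown with 10 bases on each side, on the strand of the gene, with the CArG letters in capitals, and 0 of them overlapped TEAD or E-box letters. They belong to Myl9, which rose most of the 4 in OSKM-ESCs, to Vcl and Rsu1, which rose little, and to Fermt2, which fell.
Myl9, chr2:156775293-156775322, plus strand, 161 bases before the start: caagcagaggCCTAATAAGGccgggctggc
Vcl, chr14:20929161-20929190, plus strand, 227 bases before the start: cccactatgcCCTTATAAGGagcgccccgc
Fermt2, chr14:45530250-45530279, minus strand, 204 bases before the start: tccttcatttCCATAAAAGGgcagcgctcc
Rsu1, chr2:13271368-13271397, minus strand, 28 bases after the start: aaacagttctCCTAATTTGGgaagtgtcag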

How the data were processed

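Poly-A RNA-Seq of 18 mouse libraries was described. The authors aligned reads to GRCm38 (mm10) with STAR 2.7.1a, kept uniquely mapped reads and computed FPKM per gene with StringTie 2.0, and they tested genes with Cuffdiff 2.2.1, whose output was not used here. The deposited coverage (signal) per gene was read only as a check of depth. Read counts are not given in the files, so that the depth is unknown and no counting interval could be made; FPKM passed 1 for 11303 to 12095 genes per library. FPKM was tested as log2(FPKM + 1) with limma 3.58.1 (R 4.3.3, trend) over the genes that passed FPKM 1 in any library of the comparison, with Benjamini-Hochberg adjustment over all of them and a call at 0.05. A fold change on this scale understates the change of low genes. ESCs of 3 days were fitted with day as a covariate, single days in 1 fit of the 6 ESC groups, and iPSCs and MEF 2 against 2. Gene IDs listed more than once (11) were summed and 2 genes with failed values were left out. Same-numbered libraries of a day were not paired (correlation of deviations 0.131, 0.0904 and 0.0120 on days 18, 25 and 38). Values by library were given for members called alike in ESCs and iPSCs, the 10 largest changes, and the 2 largest changes and the highest mean of each role, and other members by range. The share of MEF RNA in a library was taken as the median of its 12 fibroblast markers relative to MEF. It assumes that the marker RNA came from cells like those of the MEF libraries. Members, lists and tests were chosen with earlier results of these data known. Fits were tested on simulated data.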

Additional observations from a re-analysis of the deposited data

Results flagged for a closer look

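In 6 of 69 sets of 6 libraries, 1 library stood apart from the other 5. The rule flags about 1 in 20 sets when all 6 libraries come from 1 distribution. Each set here held 3 days with 2 libraries each, so that this rate need not hold. OSKM-ESC day 25 replicate 1 was high for Tns2 (3.88) and low for Lims1 (11.7) and Rhoa (94.4). Among 2iL-ESCs, day 18 replicate 2 was high for Fermt2 (37.4), day 18 replicate 1 low for Rhoa (172), and day 25 replicate 2 high for Ilk (1.60), a gene that shares exons with Taf10.

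The medium effect differed between days by the limma F test for 18 members. The range of the log2 fold change over the 3 days was 1.60 for Tes, 1.26 for Zyx, 1.23 for Capn2, 1.21 for Csrp1, 1.09 for Parva, 1.07 for Cav1 and 1.03 for Nedd9. It was 0.94 for Actn4, 0.88 for Myl9, 0.83 for Tns3, 0.82 for Actn1, 0.77 for Tgfb1i1, 0.72 for Src and 0.62 for Tln2. It was 0.56 for Vasp, 0.48 for Fblim1, 0.46 for Rsu1 and 0.36 for Tln1.

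The medium effect differed between ESCs and iPSCs by the interaction in limma for 5 members. The difference, ESCs minus iPSCs, was 1.57 for Myl9, -0.66 for Pxn, -0.52 for Vasp, -0.47 for Rhoa and -0.38 for Ptk2.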

How the results depend on the processing

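Over 31 settings, 978 values were computed again. Of the counts of members, 311 stayed within 1.5 times and 42 did not, and of the single ESC differences 386 kept direction and call, 7 turned and 1 (Rsu1) lost its call. In iPSCs, 173 single differences kept both, 48 lost the call, 7 gained it and 3 turned. With the fold cutoff, day 18 gave 13 higher and 2 lower (20 and 9 by adjusted p), day 25 gave 10 and 3 (17 and 10), day 38 gave 2 lower (8), all days gave 2 lower (9) and 2iL-iPSCs against MEF gave 2 higher (4). For OSKM-iPSCs against 2iL-iPSCs (8 higher, 2 lower), no filter gave 0 and 0, median-ratio scaling 5 higher, quantile normalization 4 higher, and 1 fit of all 9 groups 20 higher and 4 lower. OSKM-iPSCs against MEF (2 higher) gave 1 with a filter of mean FPKM over 1. The difference between ESCs and iPSCs (1 more positive in ESCs, 4 in iPSCs) gave 0 and 2 with ESCs of day 38 only, and 2 in iPSCs with median-ratio scaling. The share of all genes called was not recorded for most of these settings, and the cause of these changes was not tested.

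Actn4 turned to -0.0402 in ESCs with median-ratio scaling and to -0.0372 with the MEF share taken off, and ran from -0.0818 to 0.102 when 1 library was left out, below 0 without any 1 of the 4 day 25 libraries or 2iL-ESC day 38 replicate 1. In iPSCs Actn4 ran from -0.4325 to 0.0625, with the latter without 2iL-iPSC clone 3. With the MEF share taken off, an alternative chosen after seeing the data, Myl9 turned to -0.165 and Rsu1 to -0.0344 in iPSCs.

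Leaving out 1 library at a time gave 18 to 19 members higher and 7 to 10 lower in ESCs over all days, 17 to 22 and 6 to 9 on day 18, 14 to 18 and 9 to 13 on day 25, and 16 to 17 and 7 to 9 on day 38. It gave 0 to 17 higher and 0 to 2 lower in iPSCs, 0 to 4 higher and 0 to 29 lower in OSKM-iPSCs against MEF (0 lower without either MEF library), and 2 to 3 higher and 27 to 32 lower in 2iL-iPSCs against MEF. The medium effect differed between days for 13 to 22 members, and OSKM-ESCs changed between days for 9 to 21 (9 and 10 without the day 38 replicates 1 and 2). The difference between ESCs and iPSCs gave 0 to 8 more positive in ESCs (8 without OSKM-iPSC clone 1, 0 without 2iL-iPSC clone 3) and 1 to 23 in iPSCs (23 without OSKM-iPSC clone 3, 1 without 2iL-iPSC clone 3). Where 1 library was left in a group, it was assumed to vary like the other group. The share of all genes called was not recorded for the fits of this paragraph, so that these counts have no background. With a replicate block, 18 were higher and 7 lower over all days, 21 and 8 on day 18, 16 and 11 on day 25 and 17 and 9 on day 38, and 18 differed between days, so that the block moved no count by over 1.5 times.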
